A study of Mus musculus with 4 samples.

Results

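The genes described here build the MHC class I molecule and supply it with peptides. They were taken as every probe that was not a control and that the array files name for 1 of 10 genes, which are H2-K1, H2-D1, B2m, Tap1, Tap2, Tapbp, Psmb8, Psmb9, Psmb10 and Nlrc5. These 10 genes had 13 probes on 32 spots, of 34806 genes or transcripts, 55681 probes and 59305 spots that were not controls.

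Gene expression was measured with 4 single-colour microarrays, 1 per group, in cells undergoing reprogramming towards induced pluripotent stem cells (iPSCs). OE-MEFs are fibroblasts from male E13.5 mouse embryos that carry EGFP under the Oct4 promoter and enhancer, and cells of several embryos were mixed. All 4 groups were infected with retroviruses for Oct4, Sox2 and Klf4 (OSK), and the OSKA groups also with AKT-MER, a myristoylated AKT joined to a modified estrogen receptor that the ligand 4-hydroxytamoxifen (4OHT) switches on. 4OHT or vehicle was given from 3 days postinfection (dpi), and RNA was taken at 8 dpi. Throughout, 4 values in a row stand for OSK cells without and with 4OHT and then OSKA cells without (AKT-nonactivated) and with 4OHT (AKT-activated). With 1 array per group no test was possible, so the differences below carry no p-value and were not checked in replicates.

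MHC class I molecules display peptides from inside the cell to cytotoxic T cells. The immunoproteasome, a form of the proteasome with 3 exchanged catalytic subunits, cuts peptides that fit class I molecules well, the TAP transporter carries them into the endoplasmic reticulum, and tapasin holds the empty class I molecule near TAP until a peptide is bound. The class I heavy chain is stable at the surface only together with beta-2 microglobulin. Interferons raise the transcription of these genes, in part through IRF1 and NLRC5, and pluripotent cells and early embryonic cells are known for low class I levels.

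Levels are log2 intensities minus the 75th percentile of the array, so 0 is the intensity of a fairly bright spot and a step of 1 is a 2-fold difference. The scanner software gave an error of 0.14 to 0.15 (log2) for a level of each of the 10 genes and of 0.20 to 0.21 for a difference between arrays, which covers the measurement and not the variation between cultures. Between 52.4% and 55.4% of spots were well above background per array. The labels were checked with Esr1, the estrogen receptor gene of which AKT-MER holds a modified part. Its brightest probe was at 3.11 in OSKA − 4OHT and 3.32 in OSKA + 4OHT cells, and dim on the OSK arrays (−5.93 and −5.69). The probe of Akt1 did not set the OSKA arrays apart, at 5.91, 5.83, 5.82 and 5.90. Neither gene checks the 4OHT label. The free-text description of the OSKA + 4OHT array speaks of AKT-MER that is not active, against its title, and the title was followed.

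Differences are relative to the other genes of an array. Scaling to 258 spike-in spots, which carry added RNA, in place of the 75th percentile shifted every gene by −0.31 for 4OHT in OSK cells, by 0.01 for 4OHT in OSKA cells, by −0.44 for AKT-MER without 4OHT and by −0.12 for AKT-MER with 4OHT. Small differences of the first and the third kind can turn their sign under that scaling.

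All 10 genes were well above background on all 4 arrays. None differed by at least 2-fold in any of the 4 comparisons, in either direction. OSK − 4OHT cells had the lowest level of 8 of the 10 genes, against 27.2% of all genes, and AKT-activated cells the highest of 9 of 10, against 27.3%. Under spike-in scaling these counts were 3 (4.00% of all genes) and 5 (8.65%). Nlrc5, Psmb9 and Psmb8 lay at least 1.5-fold higher in OSKA − 4OHT than in OSK − 4OHT cells, as did 5.66% of all genes. Nlrc5 did so in OSK + 4OHT against OSK − 4OHT cells (4.33% of all genes), and Tap1 in OSKA + 4OHT against OSK + 4OHT cells (5.45%). Under spike-in scaling Tap1 alone was counted at this size.

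**Figure D1:**
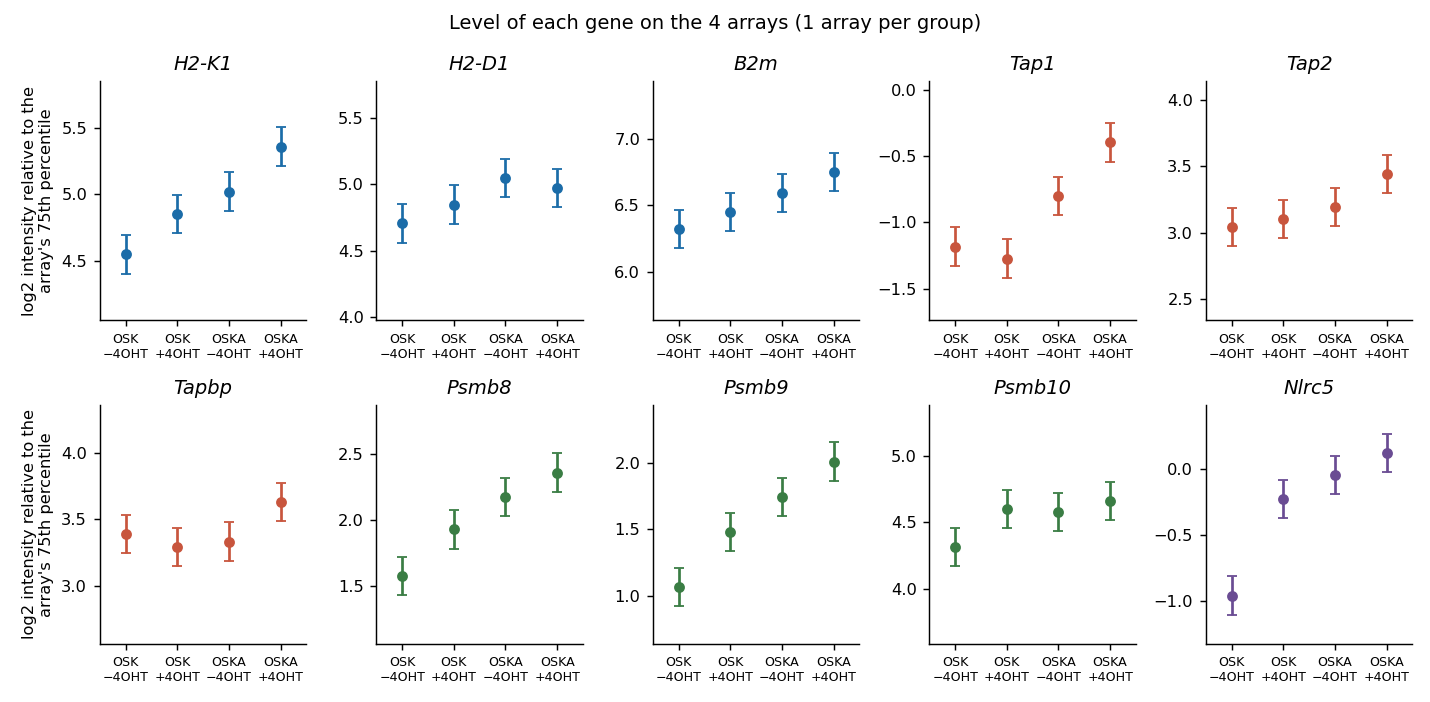
Level of each of the 10 genes (y axis, log2 intensity relative to the array's 75th percentile, every panel spanning the same range of log2 units) on the 4 arrays (x axis), with bars of 1 error of the scanner software. Blue marks the class I chains, red the peptide transporter and tapasin, green the immunoproteasome subunits and violet the transactivator, and the OSKA + 4OHT point is the highest in every panel but that of H2-D1 (in 5 of 10 under spike-in scaling).

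Sequences upstream of the genes are shown first because class I promoters hold a shared module. NLRC5 acts there together with the RFX, CREB and NF-Y factors, which bind the X1, X2 and Y boxes in turn. The promoter table of RefSeq (GRCm38.p6, 250 bases before to 50 after a start site) held 8 of the 10 genes, and Tap2 and Nlrc5 had no entry. The letters TGACG (the core of X2) followed after 25 bases, counted from first base to first base, by ATTGG (the Y box, CCAAT on the other strand) were found in the windows of H2-K1, H2-D1 and B2m. The spacing was noticed in these genes and then counted elsewhere. Over all windows, on either strand, 31 of 32851 held it (0.0944%), and among 16 other class I heavy chain genes with a window H2-M3 did. The following stretches run 5′ to 3′ on the strand of the gene, with TGACG and ATTGG in capitals. H2-K1 is given at chr17:34000354-34000463 (minus strand), H2-D1 at chr17:35262918-35263027 (plus) and B2m at chr2:122147534-122147643 (plus), all GRCm38.p6.
H2-K1: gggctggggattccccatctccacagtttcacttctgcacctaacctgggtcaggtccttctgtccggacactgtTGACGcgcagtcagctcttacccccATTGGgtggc
H2-D1: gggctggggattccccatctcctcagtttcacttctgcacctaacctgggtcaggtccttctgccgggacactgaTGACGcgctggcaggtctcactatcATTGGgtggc
B2m: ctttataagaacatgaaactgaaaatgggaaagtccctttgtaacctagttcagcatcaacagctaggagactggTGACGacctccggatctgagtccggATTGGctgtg

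The H2-K1 and H2-D1 stretches were the same at 99 of 110 positions, and those of H2-K1 and B2m at 46 of 110. The kappa B letters GGGNNTNCC were in the windows of H2-K1, H2-D1, Tap1, Psmb9 and Psmb10, 5 of 8 genes, and in those of 18.2% of the 27025 genes with a window. TGACG by itself was found in 5 of 8 genes (23.05% of all genes) and CCAAT in 6 of 8 (41.1%). The windows of Tap1 and Psmb9 overlap and count the same sites for these motifs, and H2-K1 and H2-D1 are near copies. These counts are thus not counts of independent promoters. The core of an interferon-stimulated response element, GAAANNGAA, was found in B2m only (9.76% of all genes) and the gamma-activated sequence TTCNNNGAA in Psmb8 only (9.55%). All motifs were searched on both strands. Other spellings of these elements were not searched, so windows without a match may hold one.

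Tap1 and Psmb9 lie head to head, with 225 bases between their start sites. These bases, chr17:34187331-34187555 in GRCm38.p6, are given on the strand of Tap1, with CCAAT, the kappa B match and TGACG in capitals from left to right. The start site of Psmb9 lies just left of the first base, on the other strand, and that of Tap1 just right of the last.
Tap1 and Psmb9: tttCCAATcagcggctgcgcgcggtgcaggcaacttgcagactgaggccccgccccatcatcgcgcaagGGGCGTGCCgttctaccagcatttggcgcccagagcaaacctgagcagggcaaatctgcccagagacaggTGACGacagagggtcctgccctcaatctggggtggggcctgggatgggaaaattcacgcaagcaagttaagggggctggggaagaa

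These genes share the stretch, yet their values ran in parallel only in part. Psmb9 was 0.41 higher in OSK + 4OHT than in OSK − 4OHT cells, where the difference of Tap1 was −0.09. In OSKA cells the 4OHT difference was 0.40 for Tap1 and 0.27 for Psmb9. The AKT-MER difference without 4OHT was 0.38 for Tap1 (−0.06 under spike-in scaling) and 0.68 for Psmb9. With 4OHT it was 0.88 and 0.53. A match of letters is a description of the sequence and does not say which factor was bound in these cells.

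Among the class I chains, B2m, the light chain common to class I molecules, was at 6.32 in OSK − 4OHT, 6.45 in OSK + 4OHT, 6.60 in OSKA − 4OHT and 6.75 in OSKA + 4OHT cells. Each array was higher than the one before, by steps that did not pass the software error. Among the 4 comparisons its largest difference, 0.30 between the + 4OHT arrays, was 1.23-fold. Under spike-in scaling B2m was −0.19 for 4OHT in OSK cells and −0.17 for AKT-MER without 4OHT.

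H2-K1, a classical heavy chain, was at 4.55, 4.85, 5.02 and 5.36 on the 4 arrays. Its probe at chr17:34133055-34133114 (minus strand, NCBI37) was spotted 10 times, and the spots spanned 4.44 to 4.62, 4.79 to 4.91, 4.90 to 5.10 and 5.26 to 5.41. The spots of OSK − 4OHT and OSKA + 4OHT cells overlapped with those of no other array, while those of OSK + 4OHT and OSKA − 4OHT cells overlapped at their edges. The 4OHT difference was 0.31 in OSK and 0.34 in OSKA cells, and the AKT-MER difference 0.47 without and 0.51 with 4OHT (1.39-fold and 1.42-fold). H2-K1 was thus higher in OSKA + 4OHT cells than in either group that lacked AKT-MER or 4OHT alone, while under spike-in scaling the difference was −0.01 for 4OHT in OSK cells and 0.03 for AKT-MER without 4OHT.

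A second H2-K1 probe, at chr17:34133984-34134043 in NCBI37, is shown because it shares a run of 29 bases, in capitals, with the probe of the non-classical class I gene H2-T23.
H2-K1, second probe: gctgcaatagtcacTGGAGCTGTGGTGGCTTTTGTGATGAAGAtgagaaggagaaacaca

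This probe was at 3.69, 3.81, 3.85 and 4.27. It had the same order of arrays as the first, but only OSKA + 4OHT stood off, by 0.43 from OSKA − 4OHT and by 0.46 from OSK + 4OHT cells. The AKT-MER difference without 4OHT was 0.15, against 0.47 on the first probe. How far transcripts of related class I genes add to either probe was not tested.

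H2-D1, the other classical heavy chain, was at 4.71, 4.85, 5.05 and 4.97. It was the only one of the 10 genes that was not highest in AKT-activated cells, and no pair of neighbouring levels differed by more than the software error. Its 4OHT difference was 0.14 in OSK cells, −0.17 under spike-in scaling, and −0.08 in OSKA cells. The largest was 0.34, between OSKA − 4OHT and OSK − 4OHT cells, and it was −0.10 under spike-in scaling.

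Among 23 other class I and class I-like heavy chain genes on the array, 19 were measured on all arrays. Their median difference was 0.08 and 0.10 for 4OHT in OSK and OSKA cells, and 0.28 and 0.27 for AKT-MER without and with 4OHT, with 15 of 19 genes higher in each of the AKT-MER comparisons. Under spike-in scaling the medians were −0.23, 0.11, −0.16 and 0.16, with 1 and 14 of 19 higher for AKT-MER. H2-T24 was at −3.76, −3.77, −3.14 and −2.71, and its AKT-MER difference with 4OHT, 1.06 (2.09-fold), was the only one of at least 2-fold in this list. Its signal was dim, with a software error of 0.28 for that difference. Under spike-in scaling the H2-T24 difference was 0.94, and H2-M5 was lower by at least 2-fold for 4OHT in OSK cells (−1.21) and for AKT-MER without 4OHT (−1.11), as was Cd1d1 for the latter (−1.03). That scaling moved every gene by −0.31 and −0.44 in these comparisons. H2-M5 was dim too, between −2.93 and −3.84, with software errors of 0.34 and 0.29 for its differences. H2-Q7 had almost the values of H2-D1, with differences of 0.13, −0.07, 0.33 and 0.13 (−0.19, −0.06, −0.11 and 0.01 under spike-in scaling). Whether probes of such related genes measure separate transcripts was not tested.

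Tap1 forms one side of the peptide transporter. Its probe at chr17:34330854-34330913 (plus strand, NCBI37) carries the following coding sequence.
Tap1 probe: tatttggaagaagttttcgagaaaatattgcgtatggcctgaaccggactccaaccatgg

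Tap1 was at −1.18 in OSK − 4OHT, −1.27 in OSK + 4OHT, −0.80 in OSKA − 4OHT and −0.40 in OSKA + 4OHT cells. The 10 spots of this probe spanned −1.28 to −1.11, −1.38 to −1.10, −0.92 to −0.67 and −0.54 to −0.30, so that the OSK arrays overlapped with each other and neither OSKA array overlapped with any other array. The AKT-MER difference was 0.38 without and 0.88 with 4OHT (1.30-fold and 1.83-fold), or −0.06 and 0.76 under spike-in scaling. The 4OHT difference was −0.09 in OSK and 0.40 in OSKA cells, and the gap between these, 0.50 with a software error of 0.29, was the largest of the 10 genes in this direction. It had no test.

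Tap2, the other side of the transporter, was at 3.05, 3.10, 3.20 and 3.44, and Tapbp, which encodes tapasin, at 3.39, 3.29, 3.33 and 3.63. Both were close together on 3 arrays and higher on the OSKA + 4OHT array. Against OSKA − 4OHT cells this came to 0.24 for Tap2 and 0.30 for Tapbp, and against OSK + 4OHT cells to 0.34 for each. The Tapbp difference was −0.09 for 4OHT in OSK cells and −0.06 for AKT-MER without 4OHT. Under spike-in scaling Tap2 was −0.25 and Tapbp −0.41 for 4OHT in OSK cells, and they were −0.29 and −0.50 for AKT-MER without 4OHT, so that OSK − 4OHT cells had the highest level of each.

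Other genes of peptide loading, 12 on the array and all measured, had medians of 0.04, 0.10, 0.07 and 0.15 for 4OHT in OSK cells, 4OHT in OSKA cells, AKT-MER without 4OHT and AKT-MER with 4OHT, the order of comparisons kept for all lists. None differed at least 2-fold. Under spike-in scaling the medians were −0.27, 0.11, −0.37 and 0.04, with 0 of 12 genes higher in the first and the third comparison. Calr, the chaperone calreticulin of the loading complex, was at 4.81, 4.96, 4.88 and 5.21, and Canx, calnexin, at 5.25, 5.08, 5.34 and 5.44. These chaperones serve many glycoproteins besides class I molecules.

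The immunoproteasome subunits Psmb8 (beta 5i) and Psmb9 (beta 1i) stood in the order of the H2-K1 levels. Their coding probes, at chr17:34337771-34337830 (plus) and chr17:34319174-34319233 (minus) in NCBI37, read as follows.
Psmb8 probe: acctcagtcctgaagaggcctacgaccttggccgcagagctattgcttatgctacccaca
Psmb9 probe: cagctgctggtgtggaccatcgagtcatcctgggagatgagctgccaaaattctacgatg

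Psmb9 was at 1.07 in OSK − 4OHT, 1.48 in OSK + 4OHT, 1.74 in OSKA − 4OHT and 2.01 in OSKA + 4OHT cells, and each of the 3 steps was larger than the software error. Psmb8 was at 1.58, 1.93, 2.17 and 2.36, where the last step, 0.19, was within that error. The AKT-MER difference without 4OHT was 0.68 for Psmb9 and 0.59 for Psmb8 (1.60-fold and 1.51-fold), and with 4OHT it was 0.53 and 0.43. In OSK cells, which have no AKT-MER, the 4OHT differences were 0.41 and 0.35. All of these stayed above 0 under spike-in scaling, the lowest being 0.04 for Psmb8 in OSK cells. A second Psmb9 probe was well above background on 0 of 4 arrays.

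Psmb10 (beta 2i) was at 4.31, 4.60, 4.58 and 4.66. The OSK − 4OHT array stood below the other 3, whose levels differed by less than the software error. Its difference of 0.06 between the + 4OHT arrays was the smallest of the 10 genes (−0.06 under spike-in scaling). There its differences for 4OHT in OSK cells and for AKT-MER without 4OHT, 0.29 and 0.26, were −0.03 and −0.18.

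The constitutive subunits that these replace had the following levels. Psmb5 was at 6.76, 6.87, 6.73 and 6.97, Psmb6 at 5.96, 6.18, 6.15 and 6.35, and Psmb7 at 3.63, 3.53, 3.48 and 3.63. The largest difference among these 3 in the 4 comparisons was 0.24, of Psmb5 for 4OHT in OSKA cells (0.06 on its other probe). The largest of their interferon-inducible counterparts were 0.59 for Psmb8, 0.68 for Psmb9 and 0.29 for Psmb10. Under spike-in scaling the largest in size were −0.47 for Psmb5, −0.24 for Psmb6 and −0.58 for Psmb7, all for AKT-MER without 4OHT, against 0.31 for Psmb8, 0.41 for Psmb9 and −0.18 for Psmb10. The 11 other subunits of the 20S core had medians of −0.01, 0.17, −0.05 and 0.12, and the 3 constitutive catalytic subunits 0.11, 0.20, −0.03 and 0.11. The genes of the PA28 activator, which opens the core and is also interferon-inducible, were at 3.88, 3.99, 3.87 and 3.86 for Psme1 and at 5.63, 5.67, 5.73 and 5.97 for Psme2. The 2 other Psme2 probes ranged from −0.24 to 0.19 for 4OHT in OSKA cells and from −0.30 to 0.27 for AKT-MER with 4OHT. The median of the 9 activator and assembly genes was 0.10, 0.02, 0.02 and 0.03. All these list medians were below 0 under spike-in scaling for 4OHT in OSK cells and for AKT-MER without 4OHT, and for AKT-MER with 4OHT those of the catalytic subunits and of the activator list were −0.01 and −0.09. Levels of different probes are not compared, since each probe has a brightness of its own.

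Nlrc5, the transactivator of class I genes, was at −0.96 in OSK − 4OHT, −0.23 in OSK + 4OHT, −0.05 in OSKA − 4OHT and 0.12 in OSKA + 4OHT cells. The OSK − 4OHT array stood apart and the neighbours among the other 3 did not differ by more than the software error. The 4OHT difference in OSK cells was 0.73 (1.65-fold), larger than in 97.9% of genes, and the AKT-MER difference without 4OHT was 0.91 (1.87-fold), larger than in 98.5%. Both rest on the same OSK − 4OHT array, and under spike-in scaling they were 0.41 and 0.47. A second Nlrc5 probe was well above background only on the OSKA + 4OHT array, where it was at least 1.42-fold higher than in OSKA − 4OHT and at least 1.11-fold higher than in OSK + 4OHT cells, each a bound set by the lowest signal well above background on the dim array.

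Over the 10 genes the median 4OHT difference was 0.21 in OSK cells, with 8 genes higher and 2 lower, and 0.22 in OSKA cells, with 9 higher and 1 lower. The median AKT-MER difference was 0.36 without 4OHT, with 9 higher and 1 lower, and 0.34 with 4OHT, with all 10 higher (all but Psmb10 under spike-in scaling). Of all measured genes, 49.4%, 45.2%, 47.0% and 42.9% were higher in these comparisons. The medians of all measured genes were −0.00, −0.03, −0.02 and −0.05, with SDs across genes of 0.30, 0.39, 0.36 and 0.41. Spike-in scaling turned the medians of the 10 genes to −0.10 for 4OHT in OSK cells, with 3 of 10 higher, and to −0.08 for AKT-MER without 4OHT, with 4 of 10 higher. The medians of all genes were −0.32 and −0.46 in these comparisons under that scaling, so most genes were lower there. Relative to the median of all genes, which moves with the scaling by construction, the medians of the 10 genes lay 0.22, 0.25, 0.38 and 0.39 higher.

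**Figure D2:**
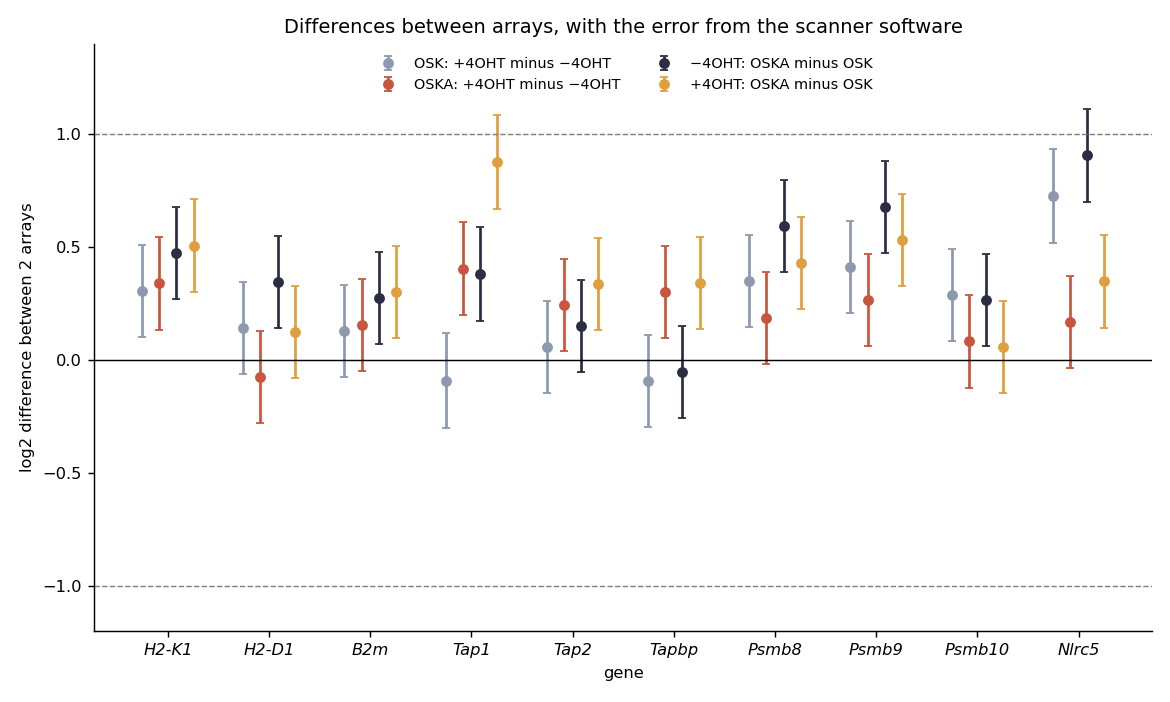
Log2 difference between 2 arrays (y axis) for each of the 10 genes (x axis) in the 4 comparisons, with bars of 1 error of the scanner software and dashed lines at a 2-fold difference. The points reach from −0.09 to 0.91, and no point passes a dashed line.

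At 2-fold, the 10 genes counted 0 higher and 0 lower in each comparison. Of all measured genes, 0.609% were higher and 0.277% lower for 4OHT in OSK cells, 2.01% and 0.902% for 4OHT in OSKA cells, 1.09% and 0.927% for AKT-MER without 4OHT, and 1.92% and 1.12% for AKT-MER with 4OHT. At 1.5-fold higher, 1 of 10 genes (Nlrc5) was counted against 4.33% of all genes, 0 against 5.06%, 3 (Nlrc5, Psmb9 and Psmb8) against 5.66%, and 1 (Tap1) against 5.45%, in the same order. The counts of 0 and 1 are near these shares, and the 3 of 10 all rest on the OSK − 4OHT array. Under spike-in scaling the counts at 1.5-fold higher were 0, 0, 0 and 1 (Tap1), against 0.912%, 5.22%, 0.981% and 3.95% of all genes.

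**Figure D3:**
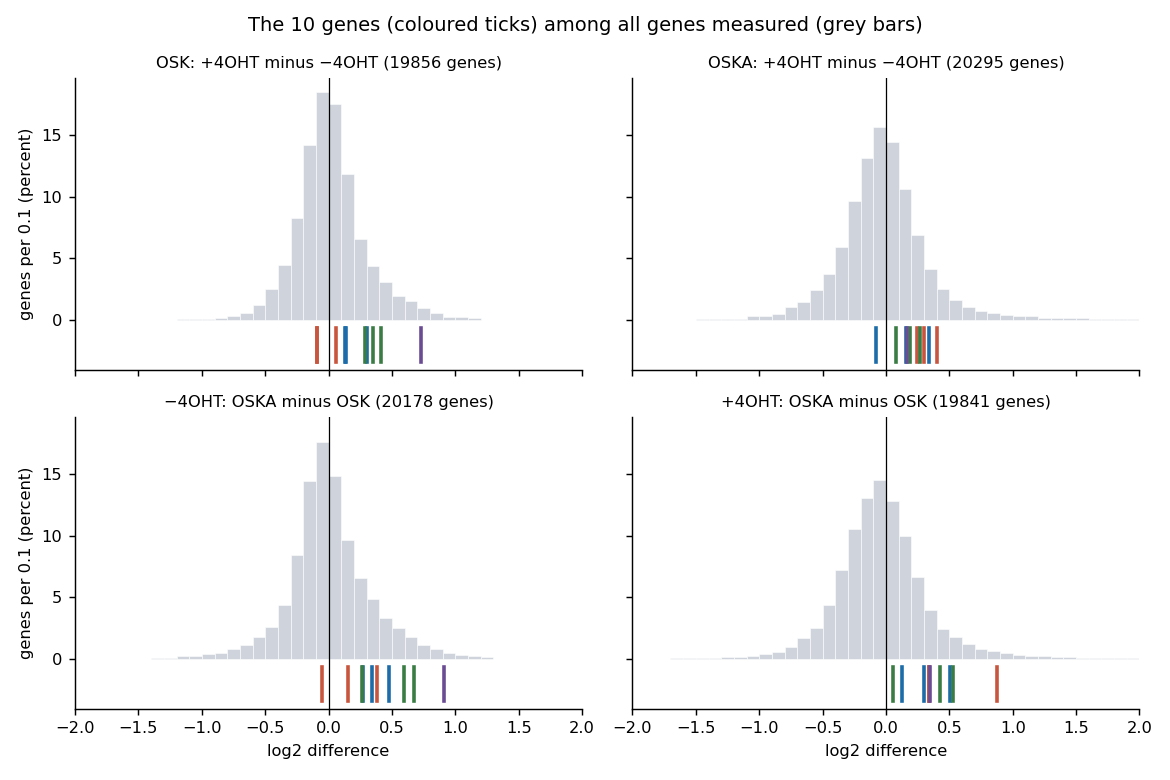
Share of all measured genes per bin of 0.1 (y axis, percent) by log2 difference (x axis) in the 4 comparisons, with ticks for the 10 genes below the axis (blue, class I chains; red, Tap1, Tap2 and Tapbp; green, immunoproteasome; violet, Nlrc5). Most ticks lie right of 0, and in the comparison of OSKA with OSK cells with 4OHT all 10 do, while spike-in scaling would move ticks and bars together by −0.31, 0.01, −0.44 and −0.12.

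The levels of 8 of 10 genes, all but Tap1 and Tapbp, were lowest on the OSK − 4OHT array, as were those of 27.2% of the 19535 genes measured on all arrays. Of the 10 genes 9 were highest on the OSKA + 4OHT array, against 27.3%, and 6 (H2-K1, B2m, Tap2, Psmb8, Psmb9 and Nlrc5) followed the full order from OSK without 4OHT through OSK with 4OHT and OSKA without 4OHT to OSKA with 4OHT, against 6.94%. Under spike-in scaling these counts were 3, 5 and 3 of 10, against 4.00%, 8.65% and 0.763% of all genes, and those that kept the full order were Psmb8, Psmb9 and Nlrc5. The genes share arrays and, in part, neighbouring positions on chromosome 17, so they are not independent of each other.

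The 4OHT difference in OSKA cells minus that in OSK cells asks whether 4OHT went with another change where AKT-MER was present. Its median over the 10 genes was −0.06, with 5 genes above 0 and 5 below, and its SD over 19535 genes was 0.49. Tap1 (0.50), Tapbp (0.39) and Tap2 (0.19) had the highest values, and Nlrc5 (−0.56) the lowest, followed by H2-D1 (−0.22) and Psmb10 (−0.21). Each has a software error of 0.29. The transporter and tapasin lay at one end and the transactivator at the other. Of all genes, 45.7% were above 0. Under spike-in scaling the median was 0.26 and 9 of 10 genes were above 0, as were 77.7% of all genes, with H2-D1 at 0.11, Psmb10 at 0.12 and Nlrc5 at −0.23.

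The regulators of class I genes were looked at from a list of 18. Stat2, a signal transducer of type I interferons, was at 1.08, 1.22, 1.79 and 2.26, a difference of 1.04 (2.06-fold) between the + 4OHT arrays, or 0.92 under spike-in scaling. Irf1, which binds the interferon response element of class I promoters, was level at 3.33, 3.40, 3.38 and 3.33. Rfx5, a subunit of the factor on the X1 box, was well above background on the OSKA arrays only, at −4.41 and −4.22. Its signal was close to the limit of detection, with −5.09 and −4.45 on the OSK arrays. The bounds were at least 1.20-fold for AKT-MER without and 1.18-fold with 4OHT. The median of the list was −0.04, −0.03, 0.06 and −0.05, or −0.35, −0.02, −0.38 and −0.16 under spike-in scaling.

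Of the interferon ligands on the list, Ifng was well above background on 0 of 4 arrays and Ifnb1 on the OSKA − 4OHT array only. On their brightest probes the receptor genes Ifnar1, Ifnar2, Ifngr1 and Ifngr2 differed by at most 0.43 in size, the value of Ifngr2 for AKT-MER without 4OHT (−0.01 under spike-in scaling). Other Ifnar1 probes reached 0.50 for 4OHT in OSK cells and −0.48 for AKT-MER with 4OHT. Socs3, a feedback inhibitor of cytokine signalling, was at 5.92, 5.77, 5.55 and 5.01. Socs1, the other Socs gene of the list, was at 1.15, 0.92, 1.08 and 1.46. Its difference was 0.38 for 4OHT in OSKA cells and 0.54 for AKT-MER with 4OHT, against −0.53 and −0.75 for Socs3. The 9 measured genes of this list, receptors, kinases and Socs inhibitors, had medians of 0.04, −0.17, 0.03 and −0.16, or −0.27, −0.16, −0.41 and −0.28 under spike-in scaling.

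Markers of other cell types moved with part of these values. The study's cells were fibroblast cultures, and all 12 fibroblast markers were well above background on every array, with 7, 8, 9 and 8 of 12 higher in the 4 comparisons (1, 8, 2 and 8 under spike-in scaling). Their median differences were 0.10, 0.08, 0.26 and 0.39, or −0.22, 0.09, −0.18 and 0.27 under spike-in scaling. Between the + 4OHT arrays they ranged from −0.76 for S100a4 to 1.65 for Lum (3.14-fold), or from −0.88 to 1.54 under spike-in scaling. Of 15 immune cell markers on the array, 12 were well above background on all arrays, including the macrophage genes Csf1r, at 5.91, 6.51, 6.50 and 6.33, and Tyrobp, at 5.13, 5.82, 5.69 and 5.48. Cd3g was well above background only in OSK − 4OHT and Itgax only in OSKA − 4OHT cells. The summed immune level was 7.53, 8.06, 8.03 and 7.84, lowest in OSK − 4OHT cells, while under spike-in scaling it was lowest in OSKA + 4OHT cells, with a difference of −0.12 from OSK − 4OHT cells. The median immune difference was 0.52 for 4OHT in OSK cells, with 11 of 12 markers higher, −0.13 for 4OHT in OSKA cells, 0.50 for AKT-MER without 4OHT, with 10 of 12 higher, and −0.18 for AKT-MER with 4OHT. Under spike-in scaling these medians were 0.20, −0.12, 0.06 and −0.30. Of the other cell type lists, 3 measured endothelial markers had medians of −0.01, −0.00, −0.36 and −0.36, and 5 measured pluripotent markers −0.20, 0.37, −0.21 and 0.07. Under spike-in scaling these were −0.32, 0.01, −0.80 and −0.47, and −0.52, 0.38, −0.65 and −0.05.

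The comparison of AKT-MER without 4OHT, in which Nlrc5, Psmb8 and Psmb9 had their largest values, was one of those in which most immune markers were higher. Under spike-in scaling 6 of 12 immune markers were higher there, and Psmb8 and Psmb9 were at 0.15 and 0.24, against 0.31 and 0.41 for AKT-MER with 4OHT. Macrophages are known to express class I and immunoproteasome genes. In bulk RNA, fewer cells of a type and less RNA per cell cannot be told apart, and their part in the values of the 10 genes was not tested. In the comparison between the + 4OHT arrays, 9 of 12 immune markers were lower while all 10 genes were higher, or 11 of 12 and 9 of 10 under spike-in scaling. Fcgr1 was the immune marker with the largest value there, 0.40.

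**Figure D4:**
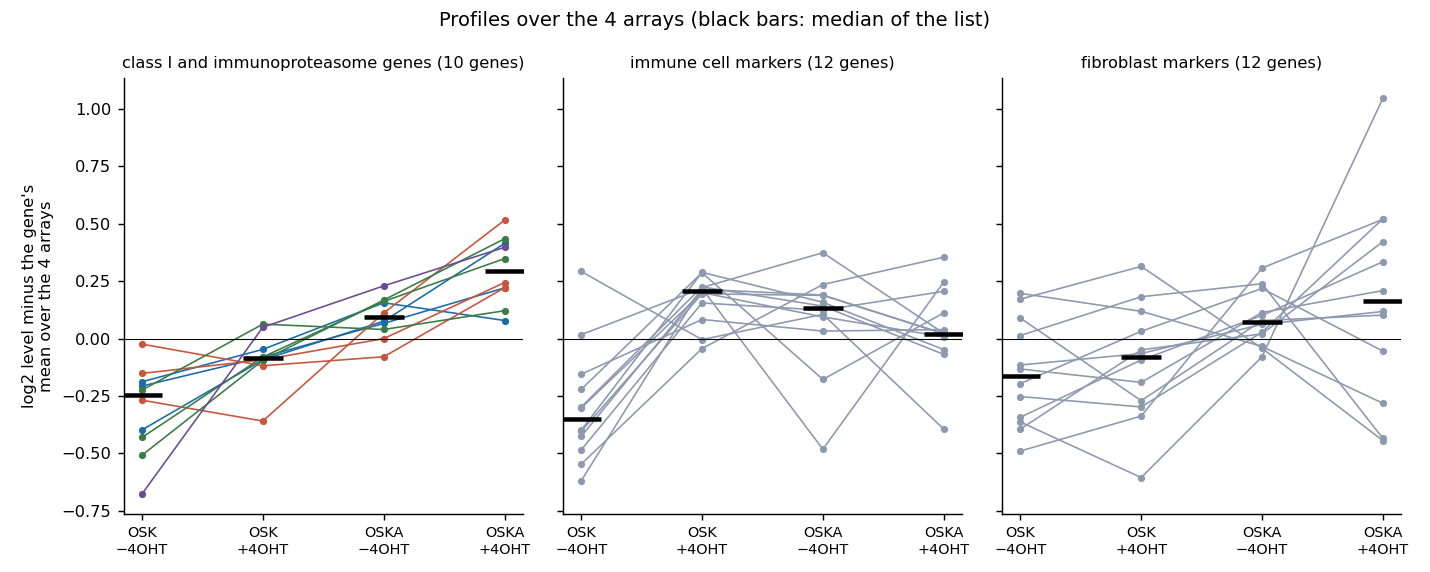
Log2 level minus the gene's mean over the 4 arrays (y axis) on each array (x axis) for the 10 genes, 12 immune cell markers and 12 fibroblast markers, with a line per gene and a black bar at the median of the list. The median of the 10 genes runs from −0.25 to 0.30 under the 75th-percentile scaling, while that of the immune markers is −0.35 in OSK − 4OHT and 0.21, 0.13 and 0.02 in OSK + 4OHT, OSKA − 4OHT and OSKA + 4OHT cells.

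Class II genes, which present peptides to helper T cells and belong to professional antigen-presenting cells, were measured for 6 of 11 genes, with medians of 0.41, 0.08, 0.33 and 0.11 (0.09, 0.09, −0.11 and −0.00 under spike-in scaling). H2-Ab1 was dim at −3.96, −3.68, −3.59 and −2.38, so that the OSKA + 4OHT array was 1.21 above OSKA − 4OHT and 1.31 above OSK + 4OHT cells. On a second H2-Ab1 probe these differences were 0.71 and 0.84. That probe had −0.30 for 4OHT in OSK cells and −0.17 for AKT-MER without 4OHT, against 0.27 and 0.37 on the first. H2-Eb1 had another order, −4.02, −3.22, −2.92 and −3.11, with an AKT-MER difference of 1.10 without and 0.11 with 4OHT, or 0.66 and −0.00 under spike-in scaling. H2-Aa was well above background on 0 of 4 arrays, and Cd74, the invariant chain, was level at −1.72, −1.86, −1.90 and −1.83.

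The genes with the profile most like the mean of the 10 were sought among 1344 genes that were measured on all arrays and had a range of at least 1 (log2). By the Euclidean distance between levels centred on each gene's mean over the 4 arrays, the nearest 5 with a symbol were A530064D06Rik, Adgrg2, Ifi204, Kitl and Tnnc1, with distances from 0.303 to 0.322. Ifi204, an interferon-inducible gene of the p200 family, was at 2.74, 3.11, 3.45 and 3.75. Kitl, the ligand of the receptor Kit, was at −0.51, −0.15, 0.05 and 0.53. With 4 arrays such a likeness says little about any single gene.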

How the data were processed

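Per the labels, 100 ng of total RNA was labelled and hybridised to Agilent arrays in 1 colour, and each array was scanned once. The deposited scanner files give, for each spot, a linear intensity after subtraction of background and removal of trends by Agilent Feature Extraction 10.7.3.1 (per the submitters' processing notes). The authors' series matrix holds the same intensity, rounded (ratio 0.995 to 1.005). All 4 arrays lay on 1 slide at different positions, and this position cannot be told apart from the group.

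The intensity was put on a log2 scale and reduced by the array's 75th percentile, leaving out marked spots (104 to 155 per array). Spots of a probe were averaged, and the brightest probe stood for a gene. Differences were taken where both arrays were well above background. Calculations used Python 3.11.15, pandas 2.3.3 and, for normexp and quantile normalization, limma 3.58.1, and were tested on simulated data. Of the probes, 49.5% were named through RefSeq accessions. The 10 genes and the 13 gene lists were chosen with earlier results of these data known. The rule named all 10 genes, listed regulators and 2-fold members of the class I lists, and the 5 nearest profiles; Calr, Canx, H2-Q7, the interferon, immune, fibroblast and class II genes were named after their values were seen. Alternatives numbered 9. The number of arrays limits the precision. A few genes under this rule are not reported here.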

Additional observations from a re-analysis of the deposited data

How the results depend on the processing

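No paired analysis was possible because each group had 1 array. Several alternatives could hardly move these genes. All 10 were well above background on all arrays, so filters on dim probes left their values unchanged. The series matrix holds the same intensities, rounded. Of 320 differences of single genes recomputed under the alternatives, 300 moved by less than the software error, in part for these reasons. The other 20 were all under spike-in scaling, which turned H2-K1 to −0.0073 and Psmb10 to −0.025 for 4OHT in OSK cells, and B2m to −0.17, H2-D1 to −0.097, Psmb10 to −0.18 and Tap1 to −0.061 for AKT-MER without 4OHT. Differences that had been within the software error turned too, with B2m at −0.19, H2-D1 at −0.17 and Tap2 at −0.25 for 4OHT in OSK cells, Tap2 at −0.29 for AKT-MER without 4OHT and Psmb10 at −0.059 for AKT-MER with 4OHT. The medians of the 10 genes became −0.098 and −0.079 there, and that of the difference between the 4OHT effects 0.265. A 1.5-fold threshold gave 1 gene higher for 4OHT in OSK cells, 3 for AKT-MER without and 1 for AKT-MER with 4OHT. Counts over all genes at 2-fold higher, 121, 407, 219 and 381, were 32, 416, 42 and 307 under spike-in scaling, 22, 169, 33 and 180 under normexp with quantile normalization, and 1271, 1879, 1472 and 1704 without a filter on dim probes. At 2-fold lower, 55, 183, 187 and 222 became 187, 167, 897 and 325, then 8, 32, 40 and 62, and then 1206, 1457, 1521 and 1442.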
